A study of Rattus norvegicus with 9 samples.

Results

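Cholesterol and fatty acid synthesis genes were measured in rat Schwann cells in primary culture; these glia wrap the axons of peripheral nerves in myelin. The 35 listed genes were chosen by name, and 34 of them had a probe set annotated to exactly 1 gene, out of 14217 genes measured in all. The exception was Hmgcs1, the synthase that makes HMG-CoA, for which no value was used here. The measured genes were 17 enzymes of the sterol pathway, 5 regulators (Insig1, Insig2, Srebf1, Srebf2 and Scap), 10 enzymes of fatty acid synthesis, elongation and desaturation, and 2 genes of sterol transport (Stard4 and Abca1).

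The cells came from sciatic nerve and each RNA sample was read on 1 Affymetrix rat array. There were 3 groups, each with 3 replicates that the labels call independent. Control RNAi cells received scrambled oligonucleotides, and NF1 RNAi cells received oligonucleotides against Nf1, which encodes neurofibromin, a protein that switches Ras off. The third group, NF1 RNAi + UO126, received the NF1 oligonucleotides and U0126 (spelled UO126 in the sample labels), which blocks MEK, the kinase upstream of ERK in the Ras pathway. All cells were transfected and taken for RNA 48 hours later, and control cells with the inhibitor were not analysed here: U0126 was measured on a background of NF1 knockdown only.

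Cholesterol is built from acetyl-CoA through mevalonate, farnesyl diphosphate, squalene and lanosterol, and fatty acids are built from the same acetyl-CoA by acetyl-CoA carboxylase and fatty acid synthase, then lengthened and desaturated. SREBP transcription factors, the products of Srebf1 and Srebf2, drive both sets of genes. SCAP escorts them to the Golgi for activation when sterols are low, and INSIG proteins hold them back in the endoplasmic reticulum when sterols are high. Schwann cells make much of their own cholesterol, which myelin needs in large amounts.

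Promoters of the genes that moved are shown first, because SREBPs act on promoters together with NF-Y, a factor that binds the CCAAT box. RefSeq promoters (assembly GRCr8, 250 bases before to 50 after the start of a gene) matched 28 of the 35 listed genes. Pmvk, Fdft1, Sqle, Acaca, Fasn, Elovl6 and Stard4 had no entry. The 200 bases just before the start are printed for 6 genes, 4 with a CCAAT box there and 2 (Dhcr7 and Fads2) without one, each on the strand of its gene. Capitals mark the CCAAT box, which reads ATTGG where it lies on the other strand.
Hsd17b7 (chr13:84722755-84722954, minus strand): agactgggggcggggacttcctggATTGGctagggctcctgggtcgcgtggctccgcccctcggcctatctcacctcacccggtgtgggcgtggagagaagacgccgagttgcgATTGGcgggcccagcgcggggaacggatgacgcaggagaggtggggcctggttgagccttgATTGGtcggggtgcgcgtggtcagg
Fdps (chr2:176804817-176805016, minus strand): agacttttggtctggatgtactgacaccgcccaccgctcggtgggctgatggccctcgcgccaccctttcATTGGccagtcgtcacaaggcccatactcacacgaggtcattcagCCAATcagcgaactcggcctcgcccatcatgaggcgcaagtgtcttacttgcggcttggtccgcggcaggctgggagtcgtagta
Idi1 (chr17:66547525-66547724, minus strand): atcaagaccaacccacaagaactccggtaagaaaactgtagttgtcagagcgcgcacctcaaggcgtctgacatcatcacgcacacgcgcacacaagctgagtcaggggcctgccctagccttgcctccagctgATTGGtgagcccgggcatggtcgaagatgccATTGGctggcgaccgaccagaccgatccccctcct
Insig1 (chr4:8057770-8057969, minus strand): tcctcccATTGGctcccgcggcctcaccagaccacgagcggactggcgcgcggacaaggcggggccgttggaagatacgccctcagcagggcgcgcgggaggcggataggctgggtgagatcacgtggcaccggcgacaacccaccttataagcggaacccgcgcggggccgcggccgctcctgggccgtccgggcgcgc
Dhcr7 (chr1:208444234-208444433, plus strand): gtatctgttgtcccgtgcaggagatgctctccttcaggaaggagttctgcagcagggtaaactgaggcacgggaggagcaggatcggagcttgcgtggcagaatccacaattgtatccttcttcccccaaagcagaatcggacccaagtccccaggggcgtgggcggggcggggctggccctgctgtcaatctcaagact
Fads2 (chr1:216172034-216172233, minus strand): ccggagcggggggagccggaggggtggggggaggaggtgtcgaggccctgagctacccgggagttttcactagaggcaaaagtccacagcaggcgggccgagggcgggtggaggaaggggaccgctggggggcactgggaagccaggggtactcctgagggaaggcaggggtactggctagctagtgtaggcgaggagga

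Motifs were searched on both strands of the whole 300-base promoters. CCAAT was found in 12 of the 15 sterol enzyme promoters, all but those of Acat2, Cyp51 and Dhcr7, in 4 of 5 regulator promoters and in 4 of 7 fatty acid enzyme promoters, against 37.5% of all 33465 promoters. The GC box GGGCGG, bound by Sp1, was in 13 of the 15 sterol enzyme promoters and in 33.1% of all promoters, but in 55.7% of the promoters of genes measured on the array. The E box CACGTG was in 1 of the 15 (Sc5d) and in 2 of 5 regulator promoters (Insig1 and Scap). It was also in 1 of 7 fatty acid enzyme promoters (Elovl5) and in that of Abca1. That made 5 of the 28, against 6.42% of all promoters and 8.62% of those of genes measured on the array. The SREBP consensus TCACNCCAC was in none of the 28 promoters and in 1.12% of all, so these letters were not in these windows. No motif holds another one whole, and each was counted on its own. A match is a match of letters, not a measured binding site.

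Levels below are log2(intensity + 1), and each difference is given on that scale ± its standard error in limma, with n = 3 arrays per group. P-values come from limma and were adjusted by Benjamini and Hochberg's method over 14217 genes, and a gene passed when its adjusted p was below 0.05. Levels of different genes come from different probes and were not compared. The knockdown was present in every array: Nf1 was at 6.65, 6.59 and 6.15 in the control arrays, 5.39, 5.41 and 5.44 with NF1 RNAi, and 5.44, 5.72 and 5.39 with NF1 RNAi + UO126. It fell by 1.05 ± 0.13 with NF1 RNAi (limma adjusted p = 0.000695).

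Control RNAi replicate 1 stood apart in these genes. It was the highest control array in all 17 sterol enzymes and in 31 of the 34 genes, the exceptions being Insig2, Acss2 and Abca1, while over all genes it was highest in 40.9%. For the sterol enzymes its excess over the mean of the other 2 control arrays had a median of 0.53 on the log2 scale, against a median gap of 0.08 between those 2. The same array had the highest median of 19 proliferation genes (8.70, against 6.98 and 7.15 on the other control arrays). The NF1 RNAi arrays were at 6.14 to 6.39 there, and those with inhibitor at 6.24 to 6.28. For 16 amino acid and ER stress genes the same array was at 10.2, and the other control arrays were at 9.34 and 9.51. There the NF1 RNAi arrays were at 8.96 to 9.23 and those with inhibitor at 9.34 to 9.70. With NF1 RNAi 10 proliferation genes fell and none rose (median difference −0.93), and 8 stress genes fell and 1 rose (median −0.44). Over all genes 13.3% fell and 13.0% rose. Without Control RNAi replicate 1 the counts were 13 and 0, and 6 and 1, where 13.2% fell and 12.2% rose. The log2 difference between 3′ and 5′ probe sets of beta-actin, which grows as RNA degrades, was 0.90 on this array. It was 0.62 and 0.60 on control replicates 2 and 3, and 0.78 to 0.87 on the 6 NF1 RNAi arrays with and without inhibitor. The same difference for Gapdh was 0.06 on this array, −0.06 and −0.11 on control replicates 2 and 3, and −0.10 to −0.02 on the other 6. The part of these differences in the results was not tested, and the main counts are given with and without this array.

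Cell identity was checked on marker lists. Of 7 measured Schwann cell genes, S100b (13.2), Pmp22 (12.8), Ngfr (12.8) and Sox10 (11.4) were high in control cells, and Erbb3 (9.71), Gfap (9.45) and Foxd3 (7.95) were lower. With NF1 RNAi S100b rose by 0.79 ± 0.07 and Pmp22 fell by 1.96 ± 0.36. With inhibitor Gfap (−1.29 ± 0.32), Erbb3 (−1.08 ± 0.22), Foxd3 (−0.47 ± 0.07) and S100b (−0.38 ± 0.07) fell, of which Gfap did not pass without NF1 RNAi replicate 2 or 3 or any single NF1 RNAi + UO126 array, nor Erbb3 without NF1 RNAi replicate 2 (limma adjusted p up to 0.104). The 7 adipocyte markers, which would bear on lipid genes, had a median of 4.44 to 4.65 over the 9 arrays. In control cells Adipoq (4.58), Plin1 (4.44), Fabp4 (3.97), Cidec (3.94), Lep (4.65) and Cfd (4.76) lay low, while Lipe was at 7.80. None of them passed with NF1 RNAi or with inhibitor. Against control cells Cidec rose with knockdown and inhibitor together (0.52 ± 0.11), where 17.9% of all genes rose. Macrophage and endothelial marker medians were 5.38 to 5.73 and 4.55 to 4.85. Of the 8 macrophage markers Laptm5 rose with NF1 RNAi (0.33 ± 0.06) and Cd68 rose with inhibitor (0.90 ± 0.12). Of the 9 fibroblast markers Col3a1 fell by 2.06 and Mfap5 fell by 1.83 with NF1 RNAi and none rose, while the median difference of the list was −0.10. Against control cells 4 of the 9 fell with knockdown and inhibitor together, Mfap5, Col3a1, Col1a1 and Col1a2, where 17.6% of all genes fell. For the other marker calls, 13.3% of all genes fell and 13.0% rose with NF1 RNAi. With inhibitor 7.02% of all genes fell and 6.70% rose. In control cells Col1a1 (13.98), Col1a2 (13.98) and Col3a1 (12.33) were high. Mfap5 (7.21), Thy1 (6.51), Fbln1 (6.17) and Pdgfra (5.24) were lower, and Dcn and Lum were near the bottom of the array in every group. The part of other cells in the results was not tested, and in bulk RNA fewer cells of a type cannot be told apart from less RNA per cell.

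**Figure D1:**
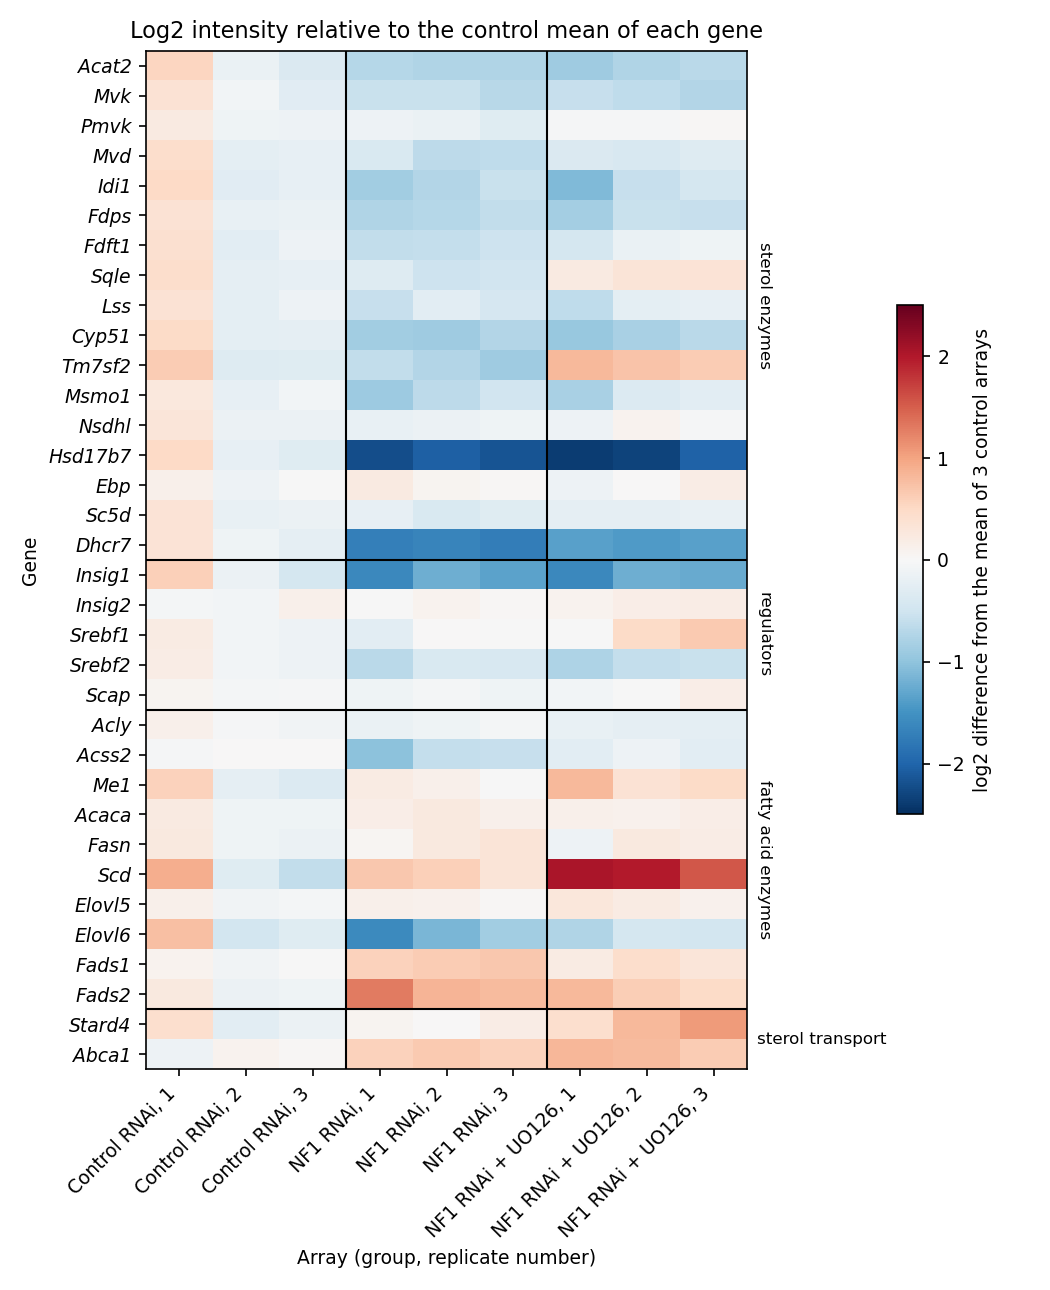
Log2 intensity of the 34 genes (rows, by role) in the 9 arrays (columns), as the difference from the mean of the 3 control arrays of the same gene, with blue lower and red higher. Most sterol enzymes are blue in all 6 NF1 RNAi arrays, Hsd17b7 and Dhcr7 most deeply, and Control RNAi replicate 1 is red in nearly every row.

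The first comparison gives the effect of NF1 knockdown alone. Sterol genes were lower: 11 of the 17 sterol enzymes fell and none rose, as did 2 of the 5 regulators, Insig1 and Srebf2. Fatty acid genes divided, with 2 of 10 lower (Acss2 and Elovl6) and 2 higher (Fads1 and Fads2), and the sterol exporter gene Abca1 rose. Over the 34 genes 15 fell and 3 rose, where 13.3% of all genes fell and 13.0% rose (26.3% in either direction). The median log2 difference was −0.60 over the sterol enzymes and 0.15 over the fatty acid enzymes, against 0.02 over all genes.

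Hsd17b7, Dhcr7 and Cyp51 had the largest falls among the sterol enzymes. Hsd17b7, a reductase that takes part in removing methyl groups from the sterol ring, was at 9.16, 8.46 and 8.36 in the control arrays and at 6.44, 6.63 and 6.49 with NF1 RNAi. It fell by 2.14 ± 0.19 (limma adjusted p = 0.000124), to 21.8% of the control mean intensity. Its second probe set fell by less, 0.94 ± 0.27. Dhcr7, the reductase of the last step, was at 9.72, 9.26 and 9.14 in control cells and at 7.66, 7.73 and 7.65 with NF1 RNAi, a fall of 1.70 ± 0.13 (limma adjusted p = 6.05e-05) to 30.3% of control. For both genes the highest NF1 RNAi array lay more than 1 log2 unit below the lowest control array. Cyp51, the lanosterol demethylase, went from 11.74, 11.02 and 11.03 to 10.39, 10.38 and 10.53 and fell by 0.83 ± 0.18 (limma adjusted p = 0.00872), and its second probe set fell by 0.99 ± 0.16. The calls of Hsd17b7, Dhcr7 and Cyp51 held without any single array.

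The other 8 sterol enzymes that passed fell by 0.55 to 0.75. Among enzymes that lead to farnesyl diphosphate, Fdps, its synthase, was at 12.11, 11.55 and 11.59 in control cells and 11.00, 11.03 and 11.14 with NF1 RNAi, a fall of 0.69 ± 0.15 (limma adjusted p = 0.0084). The thiolase gene Acat2 fell by 0.74 ± 0.19, the isopentenyl diphosphate isomerase gene Idi1 by 0.72 ± 0.23, and the mevalonate kinase and decarboxylase genes Mvk and Mvd by 0.60 ± 0.14 and 0.55 ± 0.17. Farther along, Fdft1 (squalene synthase) fell by 0.57 ± 0.16, Msmo1 (the methylsterol oxidase) by 0.68 ± 0.18 and Tm7sf2 (a sterol reductase) by 0.75 ± 0.23. Other probe sets of Idi1, Fdft1 and Mvk also fell, by 0.81 ± 0.20, 0.50 ± 0.15 and 0.43 ± 0.10, while the third of Mvk, near the bottom of the array at a mean of 5.26, differed by 0.05 ± 0.08.

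Several of these smaller falls passed only narrowly. Idi1 was closest to the threshold (limma adjusted p = 0.0463), and did not pass with the replicate number as a block (adjusted p = 0.0616) or without 7 of the 9 single arrays (adjusted p up to 0.132), all but Control RNAi replicate 2 and NF1 RNAi + UO126 replicate 1. Acat2 and Fdft1 did not pass without any single NF1 RNAi array (adjusted p 0.0535 to 0.0646 and 0.0636 to 0.0842). Mvd did not pass without NF1 RNAi replicate 2 or 3 or any single NF1 RNAi + UO126 array (adjusted p 0.0513 to 0.116), nor Tm7sf2 without any single array of the groups with NF1 oligonucleotides (adjusted p 0.0510 to 0.119). Msmo1 did not pass without Control RNAi replicate 1, NF1 RNAi replicate 1 or NF1 RNAi replicate 2 (adjusted p 0.0525 to 0.0729). The differences in those fits stayed between −0.83 and −0.47.

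The remaining 6 sterol enzymes did not pass. Sqle, the squalene epoxidase, differed by −0.44 ± 0.16 (limma adjusted p = 0.0763), Lss, which forms lanosterol, by −0.42 ± 0.17, Sc5d by −0.29 ± 0.13, Pmvk by −0.19 ± 0.10, Nsdhl by −0.15 ± 0.12 and the sterol isomerase gene Ebp by 0.12 ± 0.10. In Sqle, Lss, Sc5d and Pmvk the NF1 RNAi arrays nevertheless all lay below the control arrays, so the groups did not overlap in 15 of the 17 sterol enzymes, against 20.0% of all genes that lay lower without overlap. The second Lss probe set differed by 0.07 ± 0.11, and 1 of the 2 other Sc5d probe sets fell, by 0.42 ± 0.10.

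Among the regulators, Insig1 was lower and Insig2 was not. Insig1, an SREBP target that holds SCAP back, was at 10.21, 9.48 and 9.18 in control cells and at 8.01, 8.41 and 8.28 with NF1 RNAi, a fall of 1.39 ± 0.24 (limma adjusted p = 0.0031). Insig2 was at 8.73, 8.72 and 8.92 and then at 8.79, 8.89 and 8.83, a difference of 0.04 ± 0.07. Srebf2, whose product mainly drives sterol genes, was at 9.96, 9.71 and 9.66 in control cells and at 9.11, 9.40 and 9.37 with NF1 RNAi, a fall of 0.48 ± 0.11 (limma adjusted p = 0.0118). Its other probe set, at a mean of 4.87 near the bottom of the array, differed by −0.07 ± 0.09. Srebf1, whose product mainly drives fatty acid genes, differed by −0.09 ± 0.17 and Scap by −0.09 ± 0.07.

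The enzymes that start fatty acid synthesis did not fall with the sterol enzymes. Fasn, fatty acid synthase, was at 10.88, 10.54 and 10.50 in control cells and at 10.68, 10.87 and 10.96 with NF1 RNAi, a difference of 0.20 ± 0.13 with overlapping groups. Acaca, acetyl-CoA carboxylase, differed by 0.18 ± 0.09, though its dimmer second probe set rose by 0.36 ± 0.07. Acly, which makes cytosolic acetyl-CoA from citrate, differed by −0.10 ± 0.07, the malic enzyme gene Me1 by 0.12 ± 0.22, the elongase gene Elovl5 by 0.08 ± 0.08 and the stearoyl-CoA desaturase gene Scd by 0.53 ± 0.34.

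Acss2 and Elovl6 were the 2 that fell. Acss2, which makes acetyl-CoA from acetate, was at 8.17, 8.21 and 8.21 in control cells and at 7.17, 7.61 and 7.61 with NF1 RNAi, a fall of 0.73 ± 0.11 (limma adjusted p = 0.00169). Elovl6, which lengthens saturated fatty acids, was at 10.70, 9.50 and 9.65 and then at 8.36, 8.80 and 9.08, a fall of 1.20 ± 0.30 (limma adjusted p = 0.0171), which did not pass without NF1 RNAi replicate 1 (−1.01, adjusted p = 0.0631). Its second probe set fell by 1.36 ± 0.33. In both genes the groups did not overlap, and in Acss2 Control RNAi replicate 1 lay with the other control arrays.

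The desaturases of polyunsaturated fatty acids went the other way. Fads1 was at 11.73, 11.56 and 11.64 in control cells and at 12.22, 12.28 and 12.32 with NF1 RNAi, a rise of 0.63 ± 0.08 (limma adjusted p = 0.000495). Fads2 was at 9.35, 8.96 and 8.99 and then at 10.40, 9.95 and 9.89, a rise of 0.98 ± 0.16 (limma adjusted p = 0.00221). Each NF1 RNAi array lay above each control array in both genes. Abca1, which exports cholesterol from cells and is a target of the sterol-sensing LXR receptors, was at 10.54, 10.75 and 10.70 in control cells and at 11.25, 11.31 and 11.24 with NF1 RNAi, a rise of 0.61 ± 0.08 (limma adjusted p = 0.000641). Its 3 other probe sets rose by 0.64 to 0.75. Stard4, which carries cholesterol between membranes, differed by 0.08 ± 0.20.

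**Figure D2:**
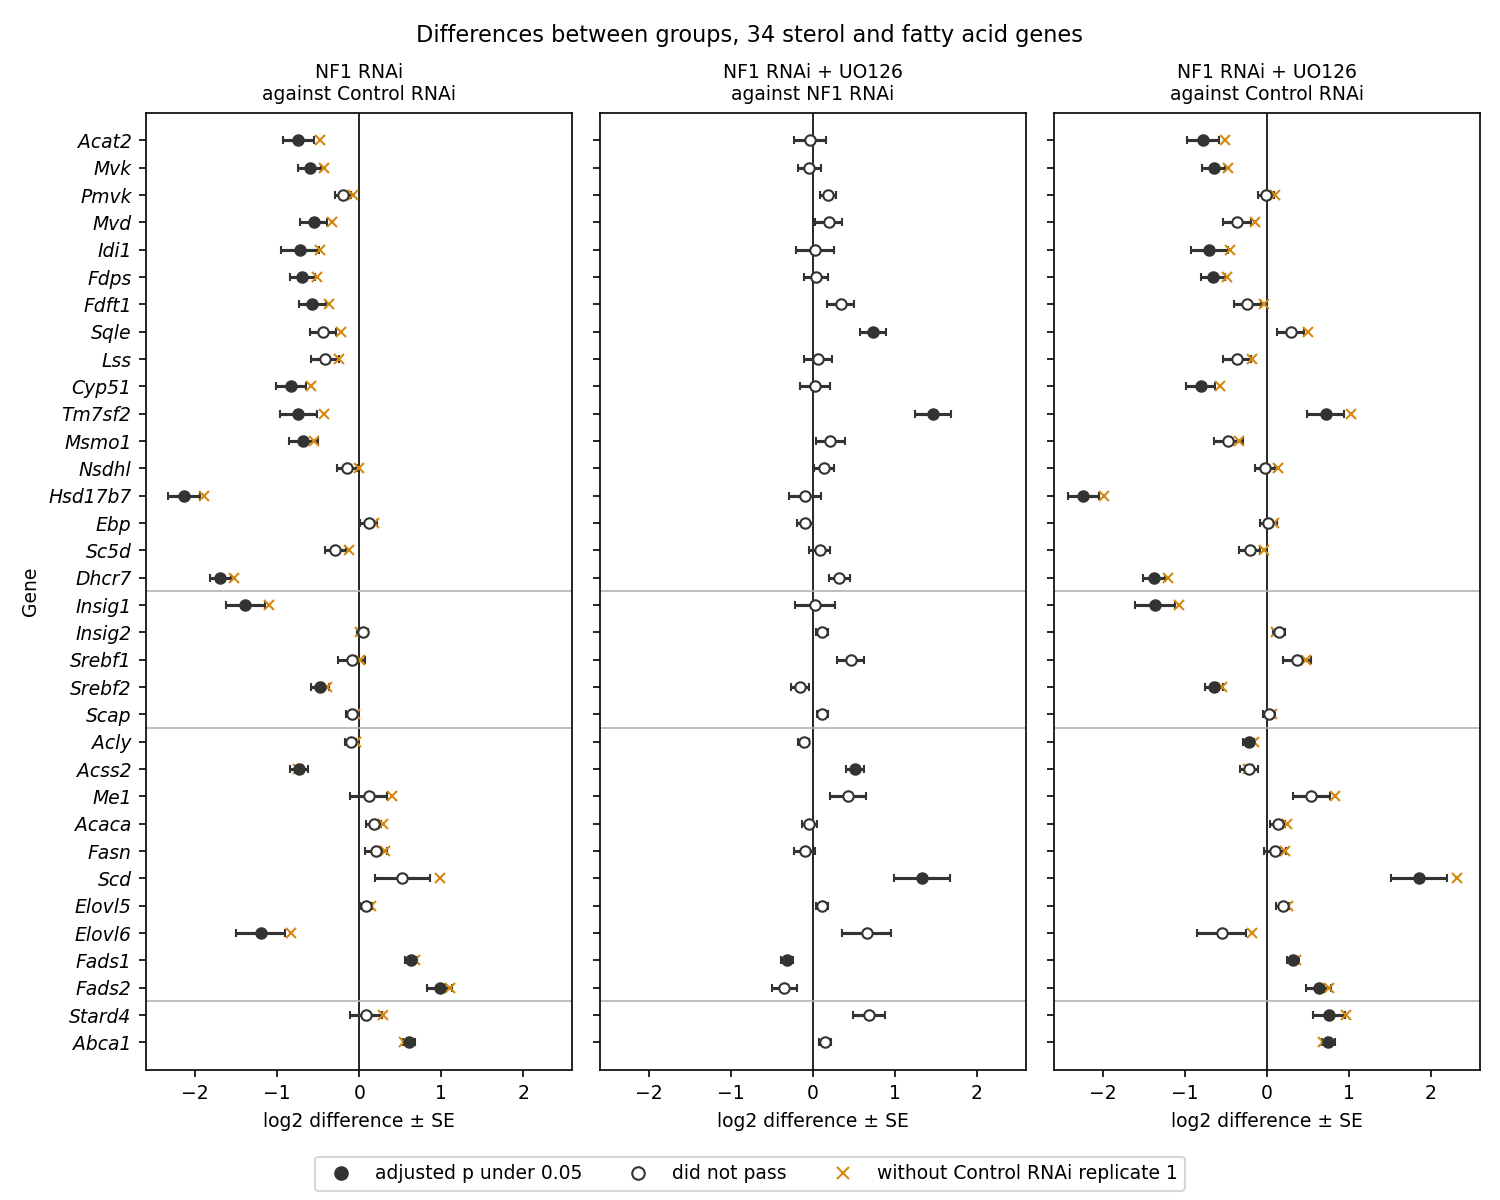
Log2 difference ± SE (limma, n = 3 arrays per group) of the 34 genes in the 3 comparisons, with filled circles for genes that passed an adjusted p of 0.05 and crosses for the value without Control RNAi replicate 1. In the left panel the crosses of the sterol enzymes that fell lie nearer to 0 than their circles, and Hsd17b7 and Dhcr7 stay beyond −1.5.

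Without Control RNAi replicate 1 fewer sterol enzymes fell and more fatty acid enzymes rose. Both class medians lay higher than with all arrays (−0.60 and 0.15). Of the 17 sterol enzymes 9 fell and none rose (median −0.42), with Idi1 (−0.47, limma adjusted p = 0.0949) and Msmo1 (−0.55, adjusted p = 0.0525) no longer passing. Of the 10 fatty acid enzymes 5 then rose and 2 fell (median 0.31): besides Fads1 and Fads2 these were Scd (0.99, limma adjusted p = 0.00359), Acaca (0.29, adjusted p = 0.0079) and Me1 (0.40, adjusted p = 0.0493). Over all genes 13.2% fell and 12.2% rose in that fit. The fatty acid median was 0.08 without Control RNAi replicate 2 and 0.09 without Control RNAi replicate 3. Taken within each replicate number, the median difference of the sterol enzymes was −1.01, −0.41 and −0.40 for numbers 1, 2 and 3, with 16, 15 and 15 of the 17 lower, and that of the fatty acid enzymes was −0.22, 0.34 and 0.30. The direction of the sterol enzymes was thus the same in each number, and that of the fatty acid enzymes was not.

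**Figure D3:**
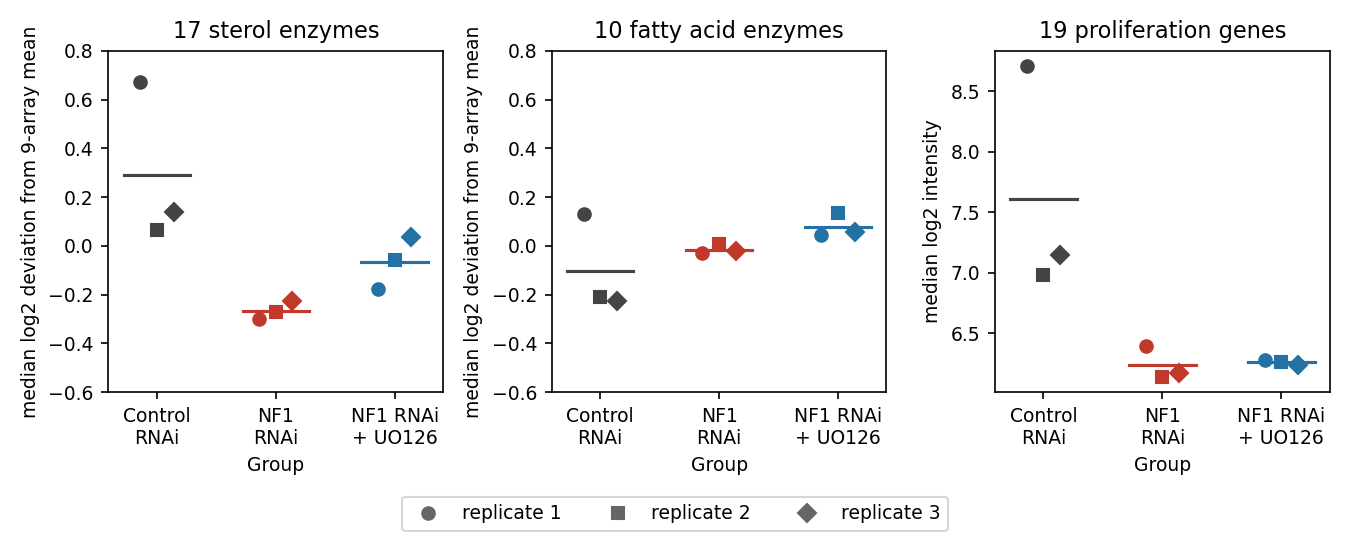
Median log2 deviation from the 9-array mean of each gene for the 17 sterol enzymes and the 10 fatty acid enzymes, and the median log2 intensity of 19 proliferation genes, for each array, with lines at the group means and symbols for the replicate numbers. The 3 NF1 RNAi arrays lie between −0.30 and −0.23 for sterol enzymes, below all control arrays (0.06 to 0.67), while for fatty acid enzymes they lie between 2 of the control arrays (−0.23 and −0.21) and Control RNAi replicate 1 (0.13).

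The second comparison gives the effect of blocking MEK in cells with NF1 knockdown. Of the sterol enzymes Tm7sf2 and Sqle rose and the other 15 did not pass. Among fatty acid enzymes Acss2 and Scd rose and Fads1 fell. Over the 34 genes 4 rose and 1 fell, where 6.70% of all genes rose and 7.02% fell (13.7% in either direction). Without overlap between the groups, 10 of the 34 genes lay higher and 2 lower, against 17.8% and 16.1% of all genes. The median difference was 0.08 over the sterol enzymes and 0.03 over the fatty acid enzymes, against 0.02 over all genes. Without NF1 RNAi + UO126 replicate 1 the sterol median was 0.19 and without NF1 RNAi replicate 2 it was 0.13. The fatty acid median was 0.02 to 0.05 without single arrays. Within replicate numbers 1, 2 and 3 the sterol median was −0.02, 0.17 and 0.15, with 9, 3 and 1 of the 17 lower. That of the fatty acid enzymes was 0.07, 0.06 and 0.05. Without all replicate 1 arrays 5 sterol enzymes rose and none fell (median 0.15), where 8.93% of all genes rose. This comparison and the first share the NF1 RNAi arrays, so their values are given side by side and not as separate evidence.

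Tm7sf2 showed the largest rise. It was at 7.63, 7.51 and 7.34 with NF1 RNAi and at 9.04, 8.95 and 8.88 with NF1 RNAi + UO126, a rise of 1.46 ± 0.23 (limma adjusted p = 0.00336). Sqle, the squalene epoxidase and an early rate-setting enzyme of the sterol branch, was at 9.56, 9.36 and 9.39 and then at 10.09, 10.20 and 10.21, a rise of 0.73 ± 0.16 (limma adjusted p = 0.0172). The groups did not overlap in either gene. Of the other sterol enzymes none passed, with differences from −0.10 (Hsd17b7 and Ebp) to 0.34 (Fdft1).

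The 15 genes that had fallen with NF1 RNAi differed in how they stood with inhibitor. Tm7sf2 and Acss2 rose, and the other 13 did not pass. The 95% interval of the U0126 difference was −0.54 to 0.34 for Hsd17b7, −0.52 to 0.57 for Insig1, −0.38 to 0.43 for Cyp51 and −0.30 to 0.37 for Fdps. For Dhcr7 it was 0.03 to 0.61, and the 3 arrays with inhibitor (8.02, 7.96 and 8.02) lay above those without, but the gene did not pass (limma adjusted p = 0.145). In 10 of the 15 genes, these 5 among them, the interval ended below the size of the fall that NF1 RNAi gave in the same gene. It reached or passed that size in Tm7sf2 (0.95 to 1.98), Acss2 (0.26 to 0.77), Elovl6 (−0.02 to 1.34), Fdft1 (−0.03 to 0.71) and Mvd (−0.18 to 0.57). The falls and these differences share the NF1 RNAi arrays. The falls are also estimates with errors of their own, in genes chosen because they passed. Without Control RNAi replicate 1 the falls of Idi1 (0.47) and Msmo1 (0.55) lay below the ends of the same intervals (0.54 and 0.61). The falls of the other genes among the 10 stayed above theirs. Intervals refitted without that array were not compared with the falls, so the 10 of 15 depends in part on that array.

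Among fatty acid enzymes, Scd, which puts the first double bond into saturated fatty acids, was at 9.04, 8.95 and 8.68 with NF1 RNAi and at 10.40, 10.35 and 9.92 with inhibitor. It rose by 1.33 ± 0.34 (limma adjusted p = 0.032). Acss2 rose by 0.51 ± 0.11 (limma adjusted p = 0.0165), with the inhibitor arrays at 7.94, 8.06 and 7.94. Fads1 fell by 0.31 ± 0.08 (limma adjusted p = 0.0255), to 11.84, 12.09 and 11.95. Fads2 differed by −0.35 ± 0.16 and passed with the replicate number as a block (limma adjusted p = 0.0117). Elovl6 differed by 0.66 ± 0.30, Me1 by 0.43 ± 0.22 and Fasn by −0.10 ± 0.13. Stard4 was at 8.87, 8.81 and 9.0 and then at 9.24, 9.62 and 9.88, a difference of 0.68 ± 0.20 that narrowly missed (limma adjusted p = 0.0518), and Abca1 differed by 0.15 ± 0.08.

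Control RNAi replicate 1 enters this comparison only through the spread that all 9 arrays share. Without it 9 of the 34 genes rose in place of 4, adding Fdft1, Dhcr7, Me1, Elovl6 and Stard4, while the share of all genes that rose went from 6.70% to 8.81%. With all 9 arrays the second Fdft1 probe set differed by only 0.07 ± 0.15, against 0.34 for the main one. Other probe sets of Me1, Elovl6 and Stard4 differed by 0.29 to 0.73. The calls were also few enough to turn on single arrays of the groups compared. Scd did not pass without any 1 of the 6 arrays compared (limma adjusted p 0.0527 to 0.104). Sqle did not pass without replicate 2 or 3 of either group (adjusted p 0.0569 to 0.0697). Fads1 did not pass without NF1 RNAi + UO126 replicate 1 or 3 or NF1 RNAi replicate 2 or 3 (adjusted p 0.0719 to 0.0865), nor Acss2 without NF1 RNAi + UO126 replicate 2 (adjusted p = 0.0664). Tm7sf2 passed without any single array.

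**Figure D4:**
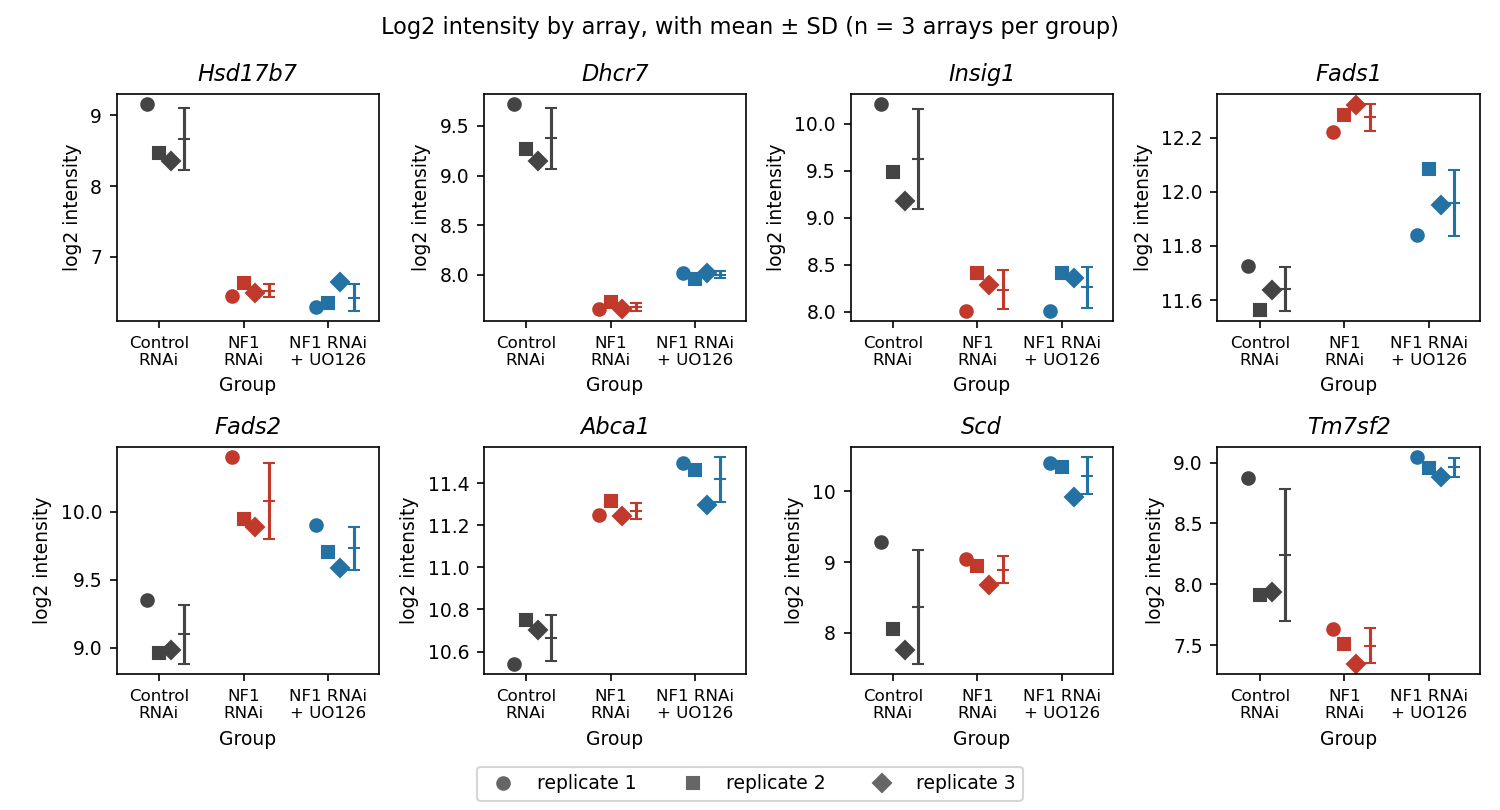
Log2 intensity of 8 genes in each array, with the group mean ± SD (n = 3) to the right of the points and symbols for the replicate numbers. Hsd17b7, Dhcr7 and Insig1 are low in both NF1 RNAi groups, Abca1 is high in both, Tm7sf2 is lower with NF1 RNAi and higher with inhibitor, and Scd is highest with inhibitor.

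The third comparison set NF1 RNAi + UO126 cells against control cells, to give what remained different with knockdown and inhibitor together. Here 10 of the 34 genes were lower and 6 higher, where 17.6% of all genes fell and 17.9% rose (35.5% in either direction). Without overlap between the groups, 13 genes lay lower and 6 higher, against 21.7% and 25.5% of all genes. Of the sterol enzymes 7 fell and 1 rose (median −0.36), of the regulators 2 fell, of the fatty acid enzymes 1 fell and 3 rose (median 0.16), and both transport genes rose. The median over all genes was 0.04.

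The falls were led by the same late enzymes, in a comparison that shares its control arrays with the first. Hsd17b7 was at 6.29, 6.35 and 6.64 with inhibitor and lay 2.24 ± 0.19 log2 units below control (limma adjusted p = 4.48e-05), at 20.5% of the control intensity. Dhcr7 fell by 1.37 ± 0.13 and Insig1 by 1.36 ± 0.24, with Insig1 at 8.01, 8.41 and 8.36. Cyp51 fell by 0.81 ± 0.18, Acat2 by 0.77 ± 0.19, Idi1 by 0.70 ± 0.23, Fdps by 0.66 ± 0.15, Mvk by 0.64 ± 0.14 and Srebf2 by 0.64 ± 0.11. Acly, with arrays at 11.43, 11.38 and 11.36, fell by 0.22 ± 0.07 (limma adjusted p = 0.0385), but did not pass without Control RNAi replicate 1 or 2, NF1 RNAi replicate 2 or any single NF1 RNAi + UO126 array (adjusted p 0.0577 to 0.101). Idi1 did not pass without Control RNAi replicate 1, NF1 RNAi + UO126 replicate 1 or 2 or any single NF1 RNAi array (adjusted p 0.0535 to 0.126).

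The genes that rose act in desaturation (Scd, Fads1, Fads2), sterol transport and export (Stard4, Abca1) and sterol reduction (Tm7sf2). Scd rose by 1.86 ± 0.34 over control cells (limma adjusted p = 0.00263), to 329% of the control intensity, although its control arrays ranged from 7.75 to 9.28. Stard4 rose by 0.76 ± 0.20, Abca1 by 0.75 ± 0.08, Tm7sf2 by 0.72 ± 0.23, Fads2 by 0.63 ± 0.16 and Fads1 by 0.32 ± 0.08. In Tm7sf2 the inhibitor arrays lay only just above Control RNAi replicate 1 (8.88 at the lowest, against 8.87). Tm7sf2 did not pass without Control RNAi replicate 2 or 3, NF1 RNAi replicate 2 or any single NF1 RNAi + UO126 array (limma adjusted p 0.0548 to 0.116), nor Stard4 without Control RNAi replicate 2 or 3 or NF1 RNAi + UO126 replicate 3 (adjusted p 0.0506 to 0.0550). Sqle differed by 0.29 ± 0.16, Srebf1 by 0.37 ± 0.17 and Me1 by 0.55 ± 0.22, none of which passed.

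Without Control RNAi replicate 1 the balance of the third comparison moved toward rises. Then 8 of the 34 genes fell and 10 rose, where 18.0% of all genes fell and 17.8% rose, with the median of the sterol enzymes at −0.18 and that of the fatty acid enzymes at 0.25. Idi1 and Acly no longer passed as lower, and Sqle (0.51, limma adjusted p = 0.0012), Me1 (0.83, adjusted p = 0.00126), Acaca (0.25, adjusted p = 0.0123) and Elovl5 (0.26, adjusted p = 0.0232) passed as higher. Within replicate numbers the sterol median was −0.92, −0.14 and −0.13, so its size rested largely on number 1.

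Other genes of lipid metabolism, from lists chosen by name, were mixed. Of 15 measured genes of sterol uptake, storage and SREBP processing (of 21 listed), 4 fell and 4 rose with NF1 RNAi, where 13.3% of all genes fell and 13.0% rose. The lipoprotein receptor gene Vldlr fell by 1.46 ± 0.22 and rose by 1.24 ± 0.22 with inhibitor. Lima1 fell by 0.73 ± 0.15, while Soat1, which esterifies cholesterol, rose by 0.57 ± 0.09 and Rnf145, a ubiquitin ligase of sterol control, by 0.63 ± 0.13. The other calls were Scarb1 (−0.50 ± 0.12), Mbtps2 (−0.42 ± 0.09), Rnf139 (0.34 ± 0.08) and Stard3 (0.34 ± 0.08), the last of which did not pass without NF1 RNAi replicate 1 or 2 (limma adjusted p 0.0519 to 0.0526). With inhibitor 3 of the 15 rose and 1 fell: besides Vldlr these were Lrp8, another lipoprotein receptor (1.09 ± 0.17), Npc2, which moves cholesterol out of lysosomes (0.54 ± 0.09), and Mbtps1, the protease that makes the first SREBP cleavage (−0.38 ± 0.08). Over all genes 6.70% rose and 7.02% fell with inhibitor. Mbtps1 did not pass without replicate 2 of either group compared (limma adjusted p 0.0515 to 0.0565).

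Of 13 LXR and sterol export genes 1 rose and 1 fell with NF1 RNAi, no larger a share than the 13.0% and 13.3% over all genes: Mylip, an LXR target that degrades lipoprotein receptors, rose by 0.76 ± 0.17 and Apoe fell by 0.49 ± 0.09. With inhibitor 3 rose and none fell, the sterol hydroxylase genes Cyp27a1 (0.66 ± 0.10) and Cyp46a1 (0.19 ± 0.05) and the phospholipid transfer protein gene Pltp (0.56 ± 0.11), where 6.70% of all genes rose. Cyp46a1 did not pass without any single array but Control RNAi replicate 1 (limma adjusted p 0.0501 to 0.126).

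Of 29 other fatty acid and glycerolipid synthesis genes (of 33 listed), 6 rose and 3 fell with NF1 RNAi, where 13.0% of all genes rose and 13.3% fell. They included the acyl-CoA synthetase gene Acsl3 (1.01 ± 0.14), the mitochondrial citrate carrier gene Slc25a1 (0.60 ± 0.07), Agpat2 (0.61 ± 0.16) and the dehydratase gene Hacd1, which fell by 1.31 ± 0.16. Scd2, a paralog of Scd, rose by 0.42 ± 0.07, as did Idh1 (0.48 ± 0.11) and Lpin1 (0.45 ± 0.12), and Tkt (−0.48 ± 0.12) and Hacd3 (−0.38 ± 0.10) fell. Agpat2 did not pass without any single NF1 RNAi array, Tkt and Hacd3 without NF1 RNAi replicate 1, and Lpin1 without Control RNAi replicate 1 or 2 or NF1 RNAi replicate 2 or 3 (limma adjusted p up to 0.0855). With inhibitor 3 rose and none fell, Acsl5 (0.95 ± 0.13), Slc25a1 (0.45 ± 0.07) and Elovl1 (0.21 ± 0.06), where 6.70% of all genes rose. Elovl1 did not pass without any single array of these 2 groups or Control RNAi replicate 2 (limma adjusted p 0.0628 to 0.117). Slc25a1 was thus higher in both steps, and against control cells it rose by 1.05 ± 0.07.

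Of 21 measured fatty acid oxidation genes (of 22 listed), Acadvl (0.37 ± 0.11) and Acadm (0.18 ± 0.05) rose with NF1 RNAi, and Etfb (−0.46 ± 0.08), Etfa (−0.32 ± 0.05) and Decr1 (−0.27 ± 0.07) fell, shares close to the 13.0% and 13.3% over all genes. Acadvl did not pass without any single NF1 RNAi array, Control RNAi replicate 2 or NF1 RNAi + UO126 replicate 2 or 3, Acadm without any single array of the groups compared, and Decr1 without Control RNAi replicate 2 or 3 or NF1 RNAi replicate 1 or 3 (limma adjusted p up to 0.103). With inhibitor Cpt1c rose by 0.28 ± 0.06, and Acadm, Hadha, Hadhb and Etfdh fell by 0.51, 0.46, 0.44 and 0.36, where 6.70% of all genes rose and 7.02% fell. Hadha and Hadhb did not pass without NF1 RNAi + UO126 replicate 2 or 3 or any single NF1 RNAi array, nor Cpt1c without any single NF1 RNAi + UO126 array or NF1 RNAi replicate 2 or 3 (limma adjusted p up to 0.0967).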

How the data were processed

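The authors deposited a linear intensity for each probe set in each array (5.62 to 25800.2), made with RMA per the submitters' processing notes. The software and its version were not given in the sources used here. Of 31099 probe sets 57 manufacturer controls were left out, and 20826 were annotated to exactly 1 gene; 13 kept a symbol not found in RefSeq (GRCr8). Values were taken as log2(value + 1), which understates changes of dim probe sets, and each of 14217 genes was represented by its brightest probe set. The groups were tested in limma 3.58.1 under R 4.3.3 (group means, 9 arrays, 6 residual degrees of freedom, no low-value filter). Precision is limited by the number of arrays. The members, lists and tests were chosen with earlier results of these data known, so no set test was made and no p was adjusted over the list. Named genes were all measured members, Nf1, and up to 4 passing genes of each other list per comparison; further list genes were named after their values were seen. The labels call the replicates independent without saying what a shared number marks. Arrays that share a number deviated together from their group means in all 9 pairs (across genes, r from 0.17 to 0.62). Arrays of numbers 2 and 3 from different groups did so too (r from 0.14 to 0.40). Arrays of number 1 deviated against those of numbers 2 and 3 (r from −0.52 to −0.23). These values set number 1 apart and do not show that the numbers pair the samples. The main fit was unpaired, which leaves a shift shared by the number 1 arrays in the spread, and a block by number was fitted as an alternative. With the block 16.2% of all genes fell and 15.7% rose with NF1 RNAi, against 13.3% and 13.0% in the main fit. Against control it gave 20.3% and 20.4%, in place of 17.6% and 17.9%. On simulated data for NF1 RNAi against Control RNAi with 14217 genes and 200 changed, the fit recovered 65.7%, 91.0% and 98.5% of changes of 0.5, 1 and 2 log2 units. Figures used matplotlib 3.10.9. Alternatives are given in the closing section.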

Additional observations from a re-analysis of the deposited data

How the results depend on the processing

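Across 21 other settings, 11 of the 18 calls with NF1 RNAi held each time (Hsd17b7, Dhcr7, Cyp51, Fdps, Mvk, Insig1, Srebf2, Acss2, Fads1, Fads2 and Abca1), as did 1 of 5 with inhibitor (Tm7sf2) and 12 of 16 against control; no gene that passed changed direction. With NF1 RNAi the 15 falls became 9 to 15 and the 3 rises 3 to 6 when single arrays were left out, and the rises became 9 with array weights and 7 without all replicate 1 arrays. With inhibitor the 4 rises became 1 to 9 and the 1 fall 0 to 1 without single arrays; rises were 9 with array weights and 11 without all replicate 1 arrays, and falls were 2 there and 2 with the replicates as a block. Against control the 6 rises became 4 to 10 without single arrays, 13 with array weights and 11 without all replicate 1 arrays, and the sterol median of −0.36 became −0.16 and −0.14 in the last 2 settings. Without all replicate 1 arrays 13.0% of all genes rose with NF1 RNAi, and 18.9% rose against control. With inhibitor 8.93% of all genes rose and 9.47% fell there, and 9.52% rose and 10.1% fell with the block. In the main fits 13.0%, 6.70% and 17.9% rose in the 3 comparisons, and 7.02% fell with inhibitor. Shares of all genes with array weights are not given here. The fit of array weights stopped before reaching its tolerance. The causes were not tested. The block changed no other count by over 1.5 times; it ended the calls of Idi1 in 2 comparisons, and gave Fads2 with inhibitor and Me1 and Elovl5 against control. With 3 arrays per group, the simulation recovered 65.7% of differences of 0.5 log2 units, and some of that size and smaller ones may have been missed here. It changed only 200 of 14217 genes, while 26.3% passed with NF1 RNAi. Its threshold after adjustment was therefore stricter, and the 65.7% does not carry over directly to these data. The 65.7% is a mean over genes drawn from the whole array, and it was not computed for the members. The simulated noise was independent between genes, so it held no shift like that of Control RNAi replicate 1.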
